A study of Drosophila melanogaster with 28 samples.

Results

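The 10 genes described here are the Toll receptors of the early Drosophila melanogaster embryo and the maternal Toll pathway: the receptor genes 18w, Tollo, Toll-6, Toll-7 and Tl, the ligand gene spz, the adaptor and kinase genes tub and pll, the inhibitor gene cact and the transcription factor gene dl. They were chosen by name, all 10 were found among the 17588 genes matched in the count table, and all 10 passed the filter that left 16513 genes for testing. The measurement was RNA polymerase II (Pol II) occupancy, by chromatin immunoprecipitation and sequencing (ChIP-seq) against its subunit Rpb3, in embryos labelled as stage 5, the stage of zygotic genome activation (ZGA). Control embryos (Ctrl, 2 libraries, genotype t180 in the labels) came from mothers of the RNAi control line crossed to the maternal driver mat-alpha-Gal4. Knockdown embryos (DomKD, 2 libraries, genotype t216) came from mothers in which the same driver expressed a short hairpin RNA against both isoforms of Domino, the chromatin remodeller that deposits H2A.Z, a variant of histone H2A. The driver acts in the female germline, so that what was depleted is the maternal supply, and the mothers of both groups carried the driver. The other 24 samples of the series, which are ChIP-seq of H2A.Z, of histone H3 methylations and of Rpb3 before ZGA with inputs, were not analysed here, and no input was subtracted.

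Toll receptors are transmembrane proteins with leucine-rich repeats outside the cell. In the dorsoventral pathway a protease cascade cleaves Spätzle on the ventral side, cleaved Spätzle binds Toll, the adaptor Tube and the kinase Pelle carry the signal inside, the inhibitor Cactus is degraded, and Dorsal enters the ventral nuclei. These products are loaded into the egg by the mother, so that Pol II on their genes at stage 5 measures zygotic transcription and not the maternal pool. Receptors related to 18 wheeler are transcribed in the zygote instead, in stripes set by the pair-rule genes, and orient cell intercalation as the body axis extends at gastrulation.

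Pol II reads are counted over each gene from the annotated start, and the starts of 5 genes on which the comparison turns are shown so that the windows can be read beside the values. Each window holds 150 bases before and 50 bases from the annotated start in the reference genome (Release 6 of RefSeq, which is dm6), in the direction of transcription. Capitals mark matches to the searched motifs: the pause-associated GAGAG (or CTCTC on the other strand), the initiator words TCAGT and TCATT, and the Dorsal-type word GGGNNNNNCC. The window of Tollo is chr3L:15235469-15235668 on the plus strand, that of Toll-6 chr3L:15336542-15336741 (plus), that of Tl chr3R:26798891-26799090 (plus), that of cact chr2L:16326158-16326357 (minus) and that of tub chr3R:4387592-4387791 (plus).
Tollo: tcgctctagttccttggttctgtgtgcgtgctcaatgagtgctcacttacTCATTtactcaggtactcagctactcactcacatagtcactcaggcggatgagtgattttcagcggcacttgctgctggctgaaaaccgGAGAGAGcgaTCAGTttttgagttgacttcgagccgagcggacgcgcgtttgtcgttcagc
Toll-6: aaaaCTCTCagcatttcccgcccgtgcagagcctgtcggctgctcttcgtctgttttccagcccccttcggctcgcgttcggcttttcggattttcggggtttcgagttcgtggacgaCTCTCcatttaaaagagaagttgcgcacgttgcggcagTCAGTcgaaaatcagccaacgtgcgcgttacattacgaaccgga
Tl: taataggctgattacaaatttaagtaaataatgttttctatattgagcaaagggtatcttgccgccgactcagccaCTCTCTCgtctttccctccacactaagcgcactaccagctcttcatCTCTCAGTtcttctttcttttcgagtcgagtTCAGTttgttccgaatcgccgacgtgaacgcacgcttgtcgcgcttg
cact: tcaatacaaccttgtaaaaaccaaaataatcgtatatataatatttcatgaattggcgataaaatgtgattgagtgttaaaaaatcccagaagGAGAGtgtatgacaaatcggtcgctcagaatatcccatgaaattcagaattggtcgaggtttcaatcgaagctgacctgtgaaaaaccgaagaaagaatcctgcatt
tub: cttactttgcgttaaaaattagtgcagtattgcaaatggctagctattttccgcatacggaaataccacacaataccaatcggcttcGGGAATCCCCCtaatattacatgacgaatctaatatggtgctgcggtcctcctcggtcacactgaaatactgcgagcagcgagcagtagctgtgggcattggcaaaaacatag

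Over the full window of 250 bases before to 50 from the start, GAGAG on either strand was found in 8 of the 10 genes, all but pll and tub, against 29.6% of 16494 promoters. In Tollo 2 overlapping matches end 5 bases before the start and are followed by TCAGT across the start itself. An initiator word lay within 10 bases of the start in 4 genes (18w, Tollo, Tl and spz), against 14.6% of promoters, and anywhere in the window in 9 of 10 against 59.5%. In Toll-6 the match runs from base 7 to base 11 of the transcript, just past that limit. The word GGGNNNNNCC occurred only in tub among the members (12.8% of promoters), with overlapping matches on both strands from 63 to 53 bases before the start. Neither the DRE word TATCGATA (8.02% of promoters) nor a TAGteam word, the site of the pioneer factor Zelda (CAGGTAG or the variant CAGGTAA or the variant CAGGCAG or the variant TAGGTAG; 8.14%), was found in any member. TATAAA (30.7%) was found only in Tl, about 200 bases upstream, and the sense-strand DPE words AGACGTG or the variant GGACGTG and AGTCGTG or the variant GGTCGTG (3.46%) were found in Toll-7, from base 28 to base 34, and in spz. A match describes these letters and no more, and annotated starts need not be those used at ZGA.

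The libraries differed in a way that touches each result. Reads over the tested genes summed to between 8326380 and 12022600 per library. The background density, taken as the mode of read density over genes longer than 2000 nt, was highest in DomKD replicate 2, at 7.04 CPM per kb (CPM, read counts scaled to the library total), against 4.41 in the other DomKD library and 4.65 and 4.23 in Ctrl, so that DomKD replicate 2 had the lowest enrichment. A gene is called occupied below when its density, averaged over the libraries, reached 2 times the averaged background, which held for 5959 of 16513 genes. With trimmed mean of M values (TMM) scaling and the likelihood ratio test of edgeR, 2497 genes (15.1%) had a Benjamini-Hochberg adjusted p under 0.05, of which 83.7% were lower in DomKD. That share was 94.5% with library sizes alone, 99.8% with TMM factors from 61 early zygotic genes, which shifted the median log2 fold change by -0.23, and 48.1% with occupied genes scaled and tested alone, which shifted the median of those genes by 0.36. The labelled stage fitted the markers: 5 of 5 cellularisation genes and 8 of 8 gap and pair-rule genes were occupied, and 0 of 5 late muscle genes and 1 of 4 late neuronal genes (elav) were. Pol II over dom itself had a difference of -0.40 ± 0.26 (SE) on the log2 scale, not called (adjusted p = 0.267, edgeR), but RNA interference acts on the maternal transcript and this value does not check the knockdown. The replicates are described as biological, and p-values measure the spread between these 4 libraries.

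In Ctrl embryos Pol II was densest over the zygotic receptor genes 18w and Tollo and the maternal pathway gene cact. It was near or below background over the genes of the maternal ligand, receptor and transcription factor. Over the transcripts used, the zygotic receptor genes Toll-6 and Toll-7 stood below the maternal pathway genes tub and pll. Density per kb of span, relative to the background of each library, was 24.3 ± 1.82 (SD, n = 2) for 18w, 11.7 ± 0.737 for Tollo and 8.82 ± 0.866 for cact. It was 4.79 ± 0.857 for tub, 4.25 ± 0.315 for pll, 3.63 ± 0.540 for Toll-6 and 3.51 ± 0.290 for Toll-7. It was 1.27 ± 0.109 for Tl, 0.825 ± 0.122 for dl and 0.655 ± 0.0798 for spz. The Ctrl values of tub and pll overlapped, as did those of Toll-6 and Toll-7, and each other neighbour in this order was apart in both libraries, pll and Toll-6 only narrowly (4.03 against 4.01). The place of Toll-6 depended on the transcript: with the shortest per gene it stood at 4.72, above pll (4.38) and just below tub (4.78). Reads over pll cannot be told from those over TfIIA-L, as described below. Among all tested genes 18w stood at the 99.1st percentile of Ctrl density, Tollo at 96.1 and cact at 93.4, whereas dl stood at 13.7 and spz at 4.78. Thus 7 of the 10 genes were occupied, and Tl, dl and spz were not. Density per kb does not rank total reads. Above background, Tl held 39.5 and 64.2 CPM (without TMM factors) in Ctrl over its 43363 nt, against 30.6 and 38.4 for tub. That excess depends on the background chosen: with the median density as background, Tl stood at 0.706 times. The embryos were measured whole, so that more cells with Pol II on a gene and more Pol II per cell cannot be told apart, which matters for genes transcribed in stripes.

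**Figure D1:**
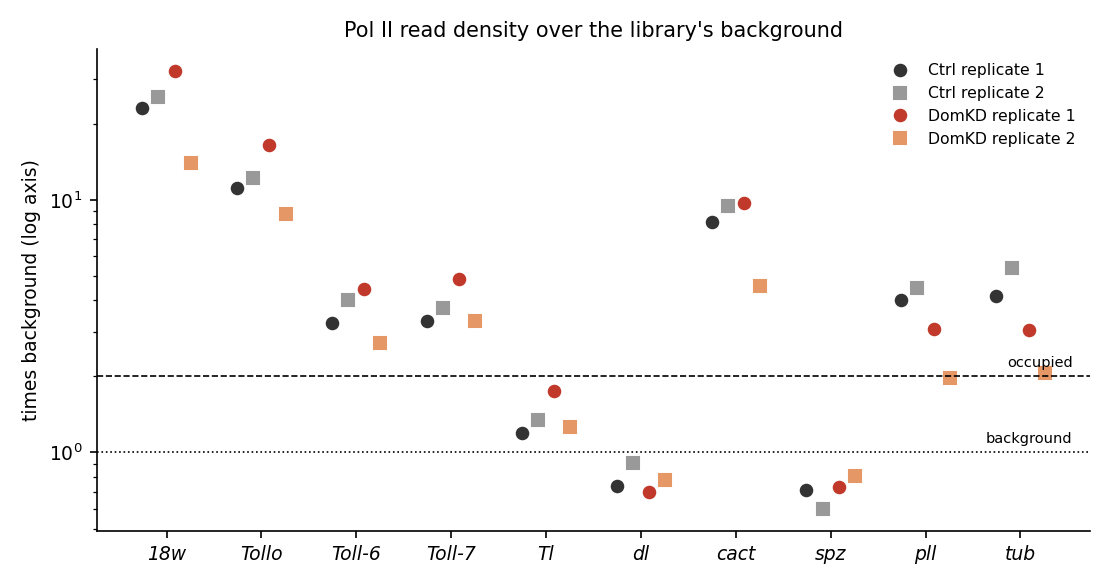
Pol II read density over each gene divided by the background of the same library (log axis), for the 4 libraries; the dotted line is the background and the dashed line 2 times it. The 4 points of 18w lie between 14.0 and 32.3, those of dl and spz lie below 1, and for all 7 occupied genes DomKD replicate 2 gives the lowest or nearly the lowest point.

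In DomKD embryos, reads over Tollo, Toll-6, Toll-7 and Tl were higher in both libraries than in either Ctrl library, reads over tub and pll were lower in both, and 18w, cact and dl overlapped between the groups. Relative to background the separation was weaker. By density over the background of its own library, DomKD replicate 2 lay below both Ctrl libraries for Tollo (8.78 times against 11.2 and 12.2) and Toll-6 (2.72 against 3.25 and 4.01). It lay between the Ctrl libraries for Toll-7 (3.32 against 3.31 and 3.72) and Tl (1.26 against 1.20 and 1.35). With background taken off, the reads left over Toll-6 were 79.7 and 97.0 CPM (without TMM factors) in Ctrl and 116 and 92.3 in DomKD, which overlap, while Tollo, Toll-7 and Tl stayed above Ctrl in both libraries. By the test across all genes only tub fell (0.683-fold) and spz rose (1.52-fold), and spz lay below background in all 4 libraries. Across all tested genes 12.7% were called lower and 2.46% higher. Both DomKD libraries lay above both Ctrl libraries in 5 of the 10 members (30.8% of all tested genes) and below in 2 (31.8% of all). Among occupied genes the background was different: 7.64% lay above in both libraries and 62.1% below, and of the 7 occupied members 3 lay above (Tollo, Toll-6 and Toll-7) and 2 below. Median log2 fold change was 0.28 over the 10 members, 0.07 over all tested genes and -0.40 over occupied genes.

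**Figure D2:**
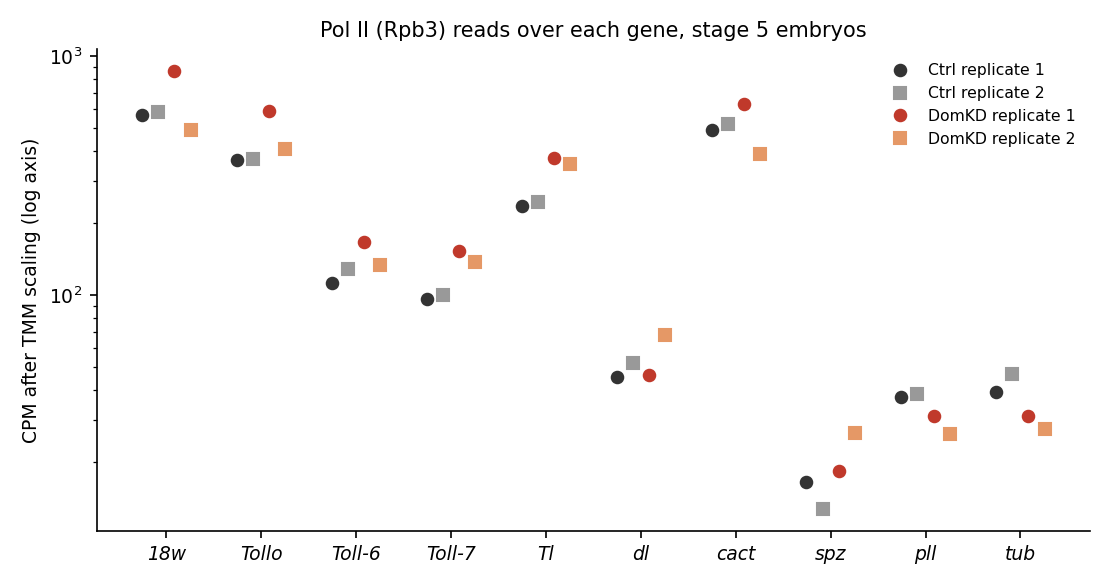
CPM after TMM scaling (log axis) over each of the 10 genes in Ctrl replicates 1 and 2 (dark and light grey) and DomKD replicates 1 and 2 (red and orange). Both DomKD points lie above both Ctrl points for Tollo, Toll-6, Toll-7, Tl and spz, and below them for pll and tub.

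The 18w gene (FBgn0287775; dm6 chr2R:20111511-20116932, plus strand) encodes the receptor 18 wheeler, also called Toll-2. It carried 569 and 583 CPM in Ctrl, 865 in replicate 1 of DomKD and 492 in its replicate 2. The DomKD libraries thus lay on either side of the Ctrl pair. The log2 fold change was 0.24 ± 0.27 (SE) with an adjusted p of 0.536 (edgeR). Its direction turned with 1 library or with the scaling: leaving out DomKD replicate 1 gave -0.23, leaving out DomKD replicate 2 gave 0.58, and it was -0.09 with the early zygotic scaling.

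Tollo (FBgn0029114; chr3L:15235619-15242832, plus strand) encodes Toll-8, which acts with 18 wheeler and Toll-6 in axis extension. It carried 367 and 369.9 CPM in Ctrl and 587 and 409.7 in DomKD. Both DomKD values were above Ctrl, replicate 2 by a log2 difference of only 0.15 against 0.67 for replicate 1. The log2 fold change was 0.44 ± 0.24 (SE), adjusted p = 0.205 (edgeR), and did not pass the test. Toll-6 (FBgn0036494; chr3L:15336692-15344315, plus strand) encodes a receptor that in the nervous system binds neurotrophin-like Spätzle ligands. It carried 113 and 128 CPM in Ctrl and 167 and 134 in DomKD, with replicate 2 close to the higher Ctrl library. Its log2 fold change was 0.32 ± 0.22 (SE), adjusted p = 0.305.

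Toll-7 (FBgn0034476; chr2R:19826578-19832973, plus strand) is a receptor of the same subfamily. It carried 96.4 and 99.9 CPM in Ctrl and 153 and 137 in DomKD. In CPM the groups were well apart and both DomKD libraries differed from Ctrl by a similar amount, by 0.64 and 0.48 on the log2 scale. As density over background, DomKD replicate 2 (3.32 times) lay between the Ctrl libraries (3.31 and 3.72). The log2 fold change was 0.56 ± 0.22 (SE), with an adjusted p of 0.058 across genes and 0.0374 when the same reads were tested across all transcripts (edgeR). Over the alternatives that kept all libraries its adjusted p ranged from 5.17e-11, with occupied genes alone, to 0.706, with the early zygotic scaling.

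The 4 genes 18w, Tollo, Toll-6 and Toll-7 are each annotated as 1 exon over their whole span, of 5422, 7214, 7624 and 6396 nt, and none overlapped another tested gene. They lie in pairs on the same strand. Tollo and Toll-6 are 93860 nt apart on arm 3L with 6 tested genes between them, of which 0 were occupied, and Toll-7 and 18w are 278538 nt apart with 26 tested genes between them, of which 1 was occupied (CG8654, named after its value was seen). Pol II did not spread evenly over Toll-6: the last 2107 nt, which the shortest isoform lacks and a further isoform covers for 229 nt, carried 0.781 and 0.769 times background in Ctrl and 0.909 and 1.04 in DomKD, against 4.19 and 5.25 (Ctrl) and 5.80 and 3.36 (DomKD) over the rest of the gene. The longest isoform thus ended in a stretch at about the background level in all 4 libraries.

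Tl (FBgn0262473; chr3R:26799041-26842403, plus strand) encodes Toll itself, the receptor of the dorsoventral pathway, and unlike the 4 intronless genes it spans 43363 nt, of which 11.8% is exonic. It carried 236 and 246 CPM in Ctrl and 373 and 353 in DomKD. In CPM both DomKD libraries were well above Ctrl and close to each other. The log2 fold change was 0.59 ± 0.23 (SE), with an adjusted p of 0.0593 across genes and 0.0472 across transcripts (edgeR), where its isoforms share nearly all reads. Most of these reads were at the level of background: in CPM without TMM factors, background density over the span accounted for 202 of 241 and 183 of 247 CPM in Ctrl replicates 1 and 2, and for 191 of 334 and 305 of 384 in DomKD replicates 1 and 2. The reads left were 39.5 and 64.2 CPM in Ctrl and 142 and 78.8 in DomKD, still higher in both DomKD libraries, with a log2 ratio of means of 1.09. As density over background, however, DomKD replicate 2 (1.26 times) lay between the Ctrl libraries (1.20 and 1.35). The last 488 nt of the gene stayed near background, from 0.758 to 1.05 times.

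The ligand gene spz (FBgn0003495; chr3R:27064990-27070070, minus strand) carried 16.5 and 12.8 CPM in Ctrl and 18.4 and 26.4 in DomKD. Both DomKD values were higher, and the log2 fold change of 0.61 ± 0.22 (SE) passed the test with an adjusted p of 0.0452 (edgeR). Density, however, lay between 0.598 and 0.805 times background in the 4 libraries, so that no Pol II above background was detectable in either group. Over the 4460 genes with a mean density below background, 3.83% were called higher and 89.0% had a log2 fold change above 0, with a median of 0.36. The call on spz was lost without DomKD replicate 2, where the log2 fold change was 0.30 with an adjusted p of 0.249. It was also lost, among others, without either Ctrl library (0.21 and 0.608), with the quasi-likelihood test of edgeR (0.0672) and with DESeq2 (0.171).

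Over dl (FBgn0260632; chr2L:17436830-17450364, minus strand), the gene of the transcription factor Dorsal, the Ctrl libraries had 45.6 and 51.8 CPM and the DomKD libraries 46.5 and 68.4. The groups overlapped, density was between 0.696 and 0.911 times background, and the difference, 0.24 ± 0.22 (SE) on the log2 scale, was not called (adjusted p = 0.443, edgeR). Its 5′ stretch of 1854 nt was no denser than the rest in Ctrl, at 0.550 and 0.843 times background. Of the end stretches measured, only the last 1816 nt exceeded background in both Ctrl libraries, at 1.35 and 1.28 times.

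The tub gene (FBgn0003882; chr3R:4387742-4389813, plus strand), which encodes the adaptor Tube, carried 39.4 and 46.9 CPM in Ctrl and 31.2 and 27.6 in DomKD. Both DomKD values were lower, with a log2 fold change of -0.55 ± 0.20 (SE) and an adjusted p of 0.0481 (edgeR). Among occupied genes 30.6% were called lower. With background density taken off, the reads left were 30.6 and 38.4 CPM in Ctrl and 18.8 and 15.5 in DomKD, a log2 ratio of -1.01. The call on tub kept its direction in all 15 alternatives and its side of the threshold in 6: it was lost, among others, without Ctrl replicate 1 (adjusted p = 0.308) and without Ctrl replicate 2 (0.634), and by quasi-likelihood (0.0655), by DESeq2 (0.125) and under the replicate block (0.0991). Its upstream neighbour Cont, a septate junction gene that ends 724 nt before tub on the same strand, was not occupied. Cont fell by 0.63 on the log2 scale (adjusted p = 0.022, edgeR). The downstream neighbour CG14646, which was occupied and lies 553 nt away, had -0.25 and was not called (adjusted p = 0.377, edgeR). Both neighbours were named after their values were seen.

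The pll gene (FBgn0010441; chr3R:27251131-27253182, minus strand), which encodes the kinase Pelle, carried 37.6 and 38.5 CPM in Ctrl and 31.2 and 26.1 in DomKD. Both DomKD values were lower, but the difference, -0.41 ± 0.20 (SE) on the log2 scale, was not called (adjusted p = 0.145, edgeR). Its whole span lies inside TfIIA-L, a general transcription factor gene on the other strand, where the difference was -0.60 ± 0.23 (SE) on the log2 scale, also not called (adjusted p = 0.0644). Reads of ChIP-seq do not tell which strand is transcribed, so that Pol II on pll and on TfIIA-L cannot be told apart.

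Within a library the ratio of 2 genes needs no scaling, so the opposite directions of the receptors and of tub and pll were also read that way, as a description added after the values were seen. The summed CPM of the 4 intronless receptors was 14.9 and 13.8 times that of tub and pll together in Ctrl, and 28.4 and 21.8 times in DomKD. Both DomKD ratios were higher. The ratio of 18w to tub was 14.4 and 12.4 in Ctrl and 27.7 and 17.8 in DomKD, although 18w alone overlapped between the groups. The ratio of 18w to cact was 1.16 and 1.12 in Ctrl and 1.38 and 1.27 in DomKD. These ratios include the background reads of each gene, and reads over pll cannot be told from those over TfIIA-L. Because tub and pll were already seen to be lower in both DomKD libraries, higher ratios over them are no separate support. Among occupied genes 62.1% lay below Ctrl in both DomKD libraries.

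**Figure D3:**
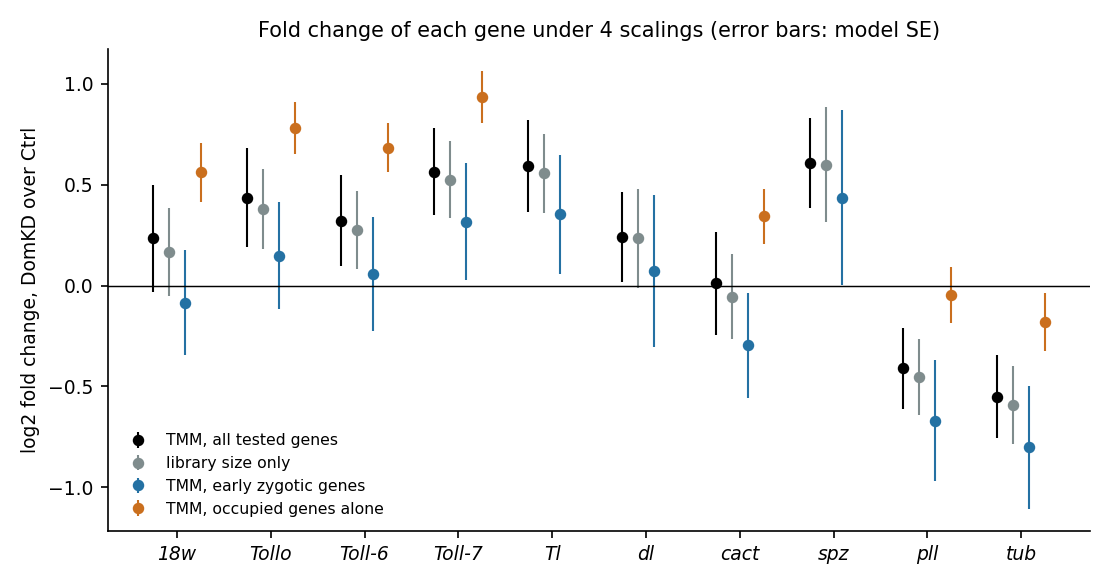
Log2 fold change, DomKD over Ctrl, with its model SE for each gene under TMM scaling on all tested genes (black), library sizes alone (grey), TMM factors from early zygotic genes (blue) and occupied genes scaled and tested alone (orange, only the 7 occupied genes). The scalings move the genes in the same direction, so that 18w and cact change sign while Tollo, Toll-6, Toll-7 and Tl stay above 0 and pll and tub below it in every scaling that tests them.

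The cact gene (FBgn0000250; chr2L:16313097-16326207, minus strand) encodes Cactus, the IκB-like inhibitor that holds Dorsal in the cytoplasm. It had the third-highest density of the 10 genes, with 489.9 and 519 CPM in Ctrl and 629 and 388 in DomKD. The DomKD libraries lay on either side of Ctrl, as for 18w, and the log2 fold change was 0.01 ± 0.26 (SE), adjusted p = 0.979 (edgeR). It was 0.31 when DomKD replicate 2 was left out and -0.38 when DomKD replicate 1 was. The overlap with the neighbouring cell cycle gene fzy, which is 1 nt, does not touch these values.

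The reads along cact, examined after its values were seen, lay more toward the 5′ end in both DomKD libraries. The first 787 nt of the longest isoform (chr2L:16325421-16326207), which begin at the start shown above and are absent from the shortest isoform with the same end (another covers 681 nt of them), make up 6.0% of its span. They held 15.7% and 15.4% of its reads in Ctrl and 19.9% and 21.5% in DomKD, both DomKD libraries above both Ctrl libraries. Against background the segment stood at 21.4 and 24.2 times in Ctrl and 32.3 and 16.4 in DomKD, and the rest of the gene at 7.36 and 8.49 in Ctrl and 8.29 and 3.82 in DomKD. Among 619 occupied genes with such nested isoforms (segments of 200 to 2000 nt and at least 100 reads), the share was higher in both DomKD libraries in 30.0%, and the median difference was 0.42 percentage points (quartiles -1.39 and 2.67). The difference was smaller than that of cact in 88.0% of them.

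**Figure D4:**
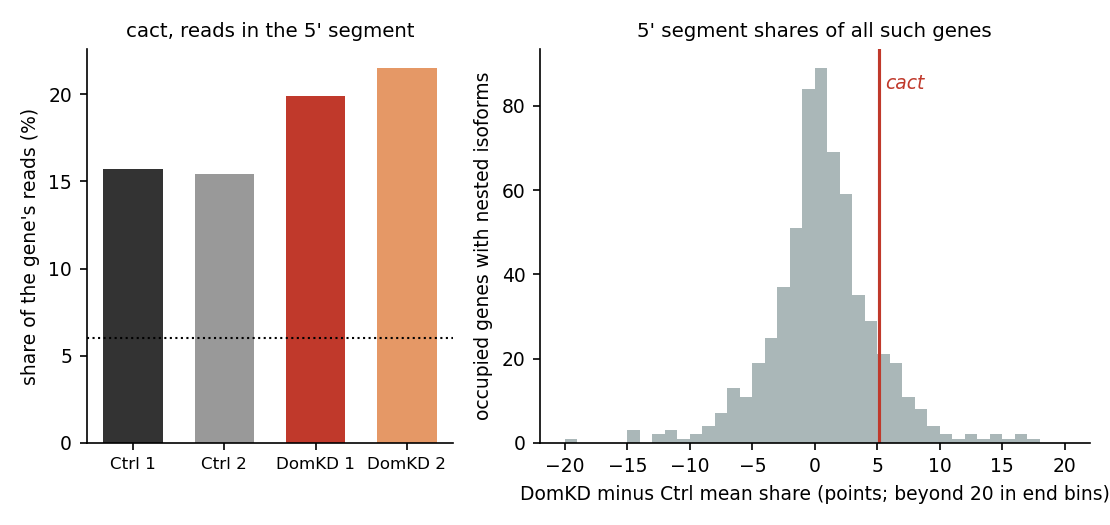
Left, share of the cact reads (%) that fall in the first 787 nt, per library, with the share of span length (6.0%) dotted; right, the number of the 619 occupied genes with nested isoforms by the difference in such a share, DomKD mean minus Ctrl mean in percentage points. Ctrl stands at 15.4% to 15.7% and DomKD at 19.9% to 21.5%, and cact lies to the right of 88.0% of the genes.

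Around these genes, the lists of the pathway were read by their counts beside all tested genes (median log2 fold change 0.07) and occupied genes (-0.40). Of all tested genes 12.7% were called lower and 2.46% higher, and of occupied genes 30.6% were called lower. The early zygotic scaling lowers, and the scaling on occupied genes raises, each list as it does each member. No Pol II stood out over the other Toll receptors. All 4 tested were unoccupied, between 0.693 and 1.11 times background, and 0 of 4 were called. Toll-9 carried 23.8 and 25.2 CPM in Ctrl and 25.4 and 34.5 in DomKD, and Toll-4 carried 16.8 and 22.3 in Ctrl and 21.6 and 25.4 in DomKD. Of the 5 further Spätzle-family ligands 0 were called, and spz6, at 73.3 and 77.5 CPM in Ctrl and 73.0 and 45.9 in DomKD, was the only occupied one. The ligand gene spz5 carried 37.6 and 35.8 CPM in Ctrl and 39.1 and 57.4 in DomKD, near background.

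The 14 genes listed around the cleavage of Spätzle mix the maternal cascade with genes of the immune response, and not all encode proteases. They were largely free of Pol II, with 1 of 14 occupied and 0 of 14 called. The occupied gene was gd, the protease gastrulation defective, at 2.30 times background, named after its value was seen. The median log2 fold change was 0.29, with 13 of 14 above 0 (8 of 14 with the early zygotic scaling). The highest counts were those of pip, a sulfotransferase of the ventral follicle cells, and ndl, the protease Nudel, with adjusted p of 0.268 and 0.248 (edgeR). Among 4 recognition genes PGRP-SA, the receptor for bacterial peptidoglycan, fell by 0.59 on the log2 scale (adjusted p = 0.0381), and GNBP1 had 0.01. The call on PGRP-SA was lost with the early zygotic scaling (0.0953) and with occupied genes alone, where the value was -0.23 (0.287).

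Among the cytoplasmic and nuclear components 1 of 15 genes was called, against 15.1% of all tested genes. Of the 15 genes 9 were occupied, 11 had a log2 fold change below 0 (45.3% of all tested and 78.4% of occupied genes did), and the median was -0.16. With the scaling on occupied genes, which tests those 9, the median was 0.06 and 3 lay below 0. The 1 call was krz, the β-arrestin Kurtz that limits Toll signalling, which was not occupied (1.68 times background). It fell by 0.66 on the log2 scale (adjusted p = 0.0179, edgeR), a call lost with the early zygotic scaling (0.0521). It carried 63.5 and 75.4 CPM in Ctrl and 42.3 and 45.4 in DomKD. The highest counts were those of Pli, the ubiquitin ligase Pellino that binds Pelle, with 548.4 and 548.8 CPM in Ctrl and 751 and 497 in DomKD, and Gprk2, a kinase needed for full signalling, with 294 and 301 in Ctrl and 254 and 290.2 in DomKD. Neither passed the test (log2 fold changes of 0.19 and -0.13).

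Genes that Dorsal activates or represses in the blastoderm were mostly bound, and their fold changes lay above 0 without passing the test under the main scaling. Of 19 tested, 15 were occupied and 0 were called, with a median log2 fold change of 0.34. All 19, of which 4 were not occupied, had a log2 fold change above 0, against 54.7% of all tested genes, 21.6% of occupied genes and 51.3% of genes at 8 times background or more, and so did 8 of 8 gap and pair-rule genes. Without DomKD replicate 1 this held for 10 of 19 (median 0.04), and without DomKD replicate 2 for 19 of 19 (median 0.56). With the early zygotic scaling it held for 14 of 19, but 11 of the 19 are among the 61 genes that set this scaling, which centres them near 0 by construction. With occupied genes scaled and tested alone, 15 of 15 were called higher (median 0.65), as were 1287 of all 5959 occupied genes. Whether they pass the test thus depends on the scaling. DomKD replicate 1 lay above both Ctrl libraries for 19 of 19, and DomKD replicate 2 below both for 7. The BMP antagonist gene sog, which Dorsal activates, carried 1615 and 1645 CPM in Ctrl and 2512 and 1387 in DomKD. The BMP ligand gene dpp, which Dorsal represses, carried 596 and 611 in Ctrl and 948 and 644 in DomKD.

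The genes that place the receptor stripes or act with the receptors in axis extension split. Of 10 tested, 9 were occupied and the median was 0.23, or -0.07 with the early zygotic scaling, which 3 of the 10 help to set, and -0.15 without DomKD replicate 1. The 2 calls were both lower, as were 83.7% of the calls over all tested genes. The gene sqh, of the myosin regulatory light chain, fell by 0.88 on the log2 scale (adjusted p = 5.31e-04, edgeR). It went from 34.6 and 39.98 CPM in Ctrl to 20.7 and 19.9 in DomKD. Cirl, a latrophilin that binds Tollo, was not occupied (1.815 times background). It fell by 0.57 (adjusted p = 0.0491, edgeR), a call lost with the early zygotic scaling (0.0847). The myosin heavy chain gene zip had 893 and 917 CPM in Ctrl and 1010 and 575 in DomKD. The teneurin gene Ten-m had 2712 and 2830 in Ctrl and 3986 and 2514 in DomKD. Both overlapped between the groups.

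Of 15 immune genes that Toll activates in the fat body of larvae and adults, 3 were occupied. AttB, an attacin, fell by 1.07 on the log2 scale (adjusted p = 1.30e-04, edgeR) from 16.6 and 18.7 CPM to 8.70 and 8.05, with the caution that its near copy AttA can share reads. Drs, drosomycin, fell by 1.13 (adjusted p = 0.0038) from 8.88 and 12.9 CPM to 6.33 and 3.58. Mtk, metchnikowin, rose by 1.32 (adjusted p = 0.0466) from 1.14 and 0.955 CPM to 1.61 and 3.68, at 1.39 times background, and was not called without DomKD replicate 2 (adjusted p = 0.491). The call on Mtk was also lost with library sizes alone (adjusted p = 0.104, edgeR) and with the early zygotic scaling (0.355). In all, 2 of 15 were called lower and 1 of 15 higher, on low counts, against 12.7% and 2.46% of all tested genes. Of the markers of other cells, those of yolk and amnioserosa were higher in CPM together with Tollo, Toll-6 and Toll-7. Of these, 5 of 5 lay above Ctrl in both DomKD libraries, against 30.8% of all tested and 7.64% of occupied genes. Their log2 fold changes were above 0 in each scaling that tested them. Their summed CPM was 1140 and 1166 in Ctrl and 1844 and 1412 in DomKD. Doc2 was called higher (log2 0.72, adjusted p = 0.0141, edgeR), but not with the early zygotic scaling (0.44, adjusted p = 0.384), which 4 of the 5 help to set. Doc1, Doc2 and Doc3 lie close together on arm 3L. Relative to background, the median of the 5 genes was 3.94 times in Ctrl replicate 1, 6.59 in DomKD replicate 1 and 3.30 in DomKD replicate 2. Their part in the values of the receptors was not tested.

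**Figure D5:**
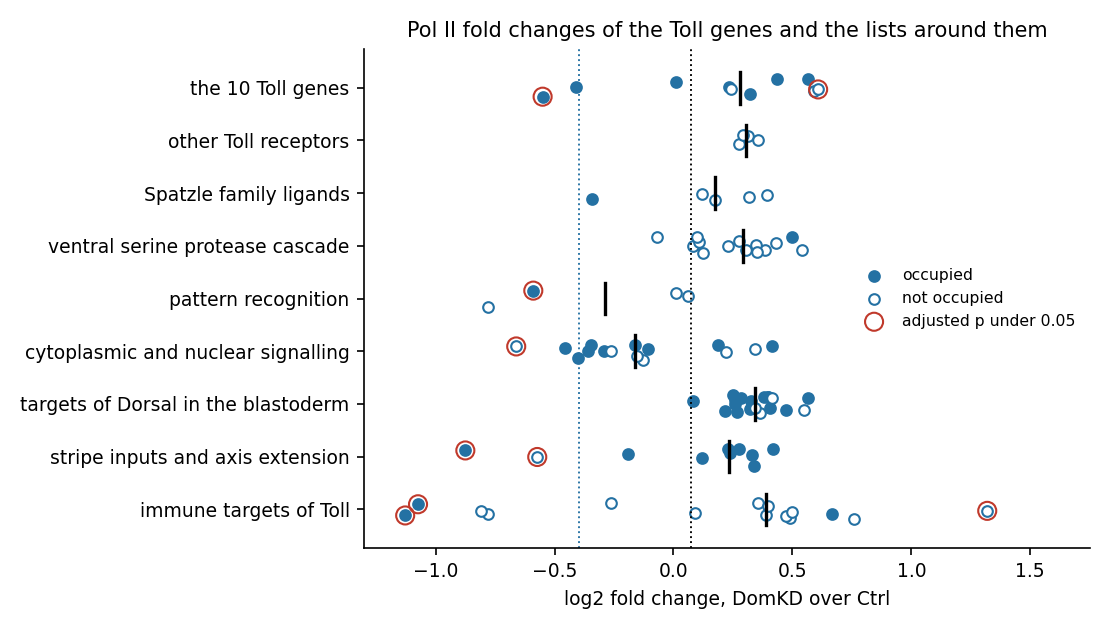
Log2 fold change, DomKD over Ctrl, of the 10 Toll genes and of each gene on the lists around them; filled points are occupied genes, red rings mark an adjusted p under 0.05, and short bars are list medians. The black dotted line is the median of all tested genes (0.07) and the blue dotted line that of occupied genes (-0.40); the 19 targets of Dorsal lie above 0, and most cytoplasmic and nuclear signalling genes below it.

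Finally, genes with the pattern most like the 3 densest members were sought, as the mean absolute difference in log2 density over the 4 libraries after centring on Ctrl, among occupied genes. For 18w these were pan, the transcription factor of Wnt signalling (0.008), zld, the pioneer factor Zelda (0.009), and HnRNP-K (0.011). For Tollo they were CG32982 (0.010), S6k, the S6 kinase (0.014), and the antisense transcript asRNA:CR46020 (0.016). For cact they were brat, the translational regulator Brain tumor (0.009), dnk, a deoxynucleoside kinase (0.011), and Acer (0.015). With 4 libraries many genes match closely: 103, 67 and 115 genes lay within 0.05 of 18w, Tollo and cact.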

How the data were processed

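Rpb3 ChIP-seq was used from 2 Ctrl and 2 DomKD libraries. To make the deposited counts, which are raw reads per transcript span, the authors mapped reads to dm6 with snakePipes and counted them with featureCounts, ignoring strand and adding a read to every transcript it overlapped, introns included. Background reads therefore grow with span. By identifier, the BDGP6 annotation covered 34516 of the 34793 transcripts. A transcript was kept if it spanned 125 nt or more and its reads summed to over 10, and the transcript with the highest mean count stood for each gene. Groups were compared in edgeR 4.0.16 under R 4.3.3 by glmLRT, its likelihood ratio test, with TMM factors and Benjamini-Hochberg adjustment over all 16513 genes. The study used the same test per transcript, with factors from its own Zelda targets, and then took the most significant transcript of each promoter. DESeq2 1.42.0 and other alternatives are given in the closing section. Density is CPM without TMM factors per kb of span; the mode used a kernel bandwidth of 0.1. The named genes are the members, genes overlapping them, called genes of each list (at most 4) and the 2 highest in count, and the 3 likest occupied genes of the 3 densest members. The members and lists were chosen with earlier results of these data known. Protein sequences were not used here.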

Additional observations from a re-analysis of the deposited data

How the results depend on the processing

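Most directions were kept. Of the values of single genes in the refits, 97 stayed on the same side of the threshold in the same direction, 23 passed it, 17 no longer passed it and 10 changed sign. The log2 fold change of 18w was -0.086 with the early zygotic scaling and ranged from -0.231 (without DomKD replicate 1) to 0.576 (without DomKD replicate 2) with 1 library left out. That of cact was -0.0546 with library sizes alone, -0.297 with the early zygotic scaling, -0.0301 with the replicate block, -0.0305 with the block crossed, from -0.382 to 0.308 with 1 library left out and -0.00159 with the shortest transcript. That of dl ranged from -0.0696 (without DomKD replicate 2) to 0.496. Among the 10 genes the count called was 2, and it was 0 with the early zygotic scaling, 5 with occupied genes alone (all higher), 0 with the quasi-likelihood test (5 at an unadjusted p under 0.05), 1 with DESeq2 (Tl), 1 with the shortest transcript, and between 0 and 9 with 1 library left out, where the lone library of a group is assumed to vary like the other pair. Without DomKD replicate 2, which had the lowest enrichment, 7 of 10 were called, 6 higher and 1 lower, and without DomKD replicate 1 9 of 10 were, 5 higher and 4 lower. Over all genes the count of 2497 was 1155 with DESeq2 and ranged from 137 to 8825 with 1 library left out. The groups share replicate numbers that no label ties to a common culture or day, and the replicate differences of the groups correlated at -0.144 over genes. With the replicate block 1858 of all genes and 0 of the 10 were called. With the numbers crossed, an alternative added after the data were seen, 3412 of all genes and 4 of the 10 were called. The cause of these changes was not tested. With background density taken off, the log2 ratio was 1.09 for Tl, -0.84 for pll and -1.01 for tub, it was 0.16 for 18w, 0.38 for Tollo, 0.24 for Toll-6 and 0.58 for Toll-7, and for cact it turned to -0.12.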
